A study of Mus musculus with 6 samples.

Results

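*Slc26a4* and 9 genes of bicarbonate transport and carbon dioxide hydration were followed in retinas of *Yap* conditional knockout mice. The 10 genes are the anion exchanger *Slc26a4*, the transporters *Slc4a2*, *Slc4a3*, *Slc4a4*, *Slc4a5* and *Slc4a7*, and the carbonic anhydrases *Car2*, *Car4*, *Car12* and *Car14*. They were taken by symbol from the 55421 genes of the count table, and all 10 were among the 16575 genes that passed the filter on low counts. *Slc26a4* was chosen by its measured difference between *Yap* cKO and control retinas, and the other members were chosen with results of the same comparison known. Values of the 10 genes are therefore given as a description, with no p-value.

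The data are fragment counts per gene from 6 retinas of 2-month-old mice, 1 library per animal. Control mice (YR612, YR613 and YR615) carried Yapfl/fl, and *Yap* cKO mice (YR711, YR713 and YR714) carried Yapfl/fl with RaxCreERT2. All 6 animals, controls included, received 4-hydroxytamoxifen (4OH-T) at P10 and P14, and no group carried RaxCreERT2 without the floxed alleles. In this line the recombinase is active in Müller glia, the radial glia of the retina, and in the ciliary body's non-pigmented epithelium (NPE), so the deletion covers only part of the cells of the eye.

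Between 24261799 and 35067068 fragments per retina were assigned to genes. *Yap1*, the deleted gene, had 9.48, 9.52 and 9.83 TPM (a level per gene length and library size) in the control retinas and 3.99, 3.76 and 3.94 TPM in the *Yap* cKO retinas, so all 6 retinas were on the side of their label. Markers of the labelled tissue were present in all 6 retinas, with a summed level of 49808 to 56459 TPM for 6 rod genes and 4900 to 5716 TPM for 6 Müller glia genes. By the X-linked *Xist* and the Y-linked *Ddx3y*, 2 control retinas (YR612 and YR613) and 1 *Yap* cKO retina (YR711) came from males and the other 3 from females. In bulk tissue, fewer cells of a type and less RNA per cell cannot be told apart.

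Cells move acid and base as bicarbonate, carbon dioxide and protons. Carbonic anhydrases interconvert carbon dioxide and bicarbonate, in the cytosol or at the outer face of the membrane. SLC4 proteins then carry bicarbonate across the membrane, either in exchange for chloride or together with sodium, and SLC26 proteins exchange several anions. In the ciliary body these steps take part in the secretion of aqueous humor, and in the retina carbonic anhydrase activity and sodium bicarbonate cotransport are known from Müller glia.

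*Slc26a4* encodes pendrin, an exchanger of chloride for bicarbonate or iodide that is best known from the inner ear, the thyroid and the kidney. The 250 bases before its start site are shown because it had the largest difference of the 10 genes, beside those of *Car14*, the member in whose promoter window a TEAD motif was found. TEAD proteins are the DNA-binding partners of YAP. The sequences are from RefSeq (GRCm38.p6), both on the minus strand, at chr12:31559985-31560234 for *Slc26a4* and chr3:95904686-95904935 for *Car14*. Capitals mark the match to CATTCC on the opposite strand.
Slc26a4: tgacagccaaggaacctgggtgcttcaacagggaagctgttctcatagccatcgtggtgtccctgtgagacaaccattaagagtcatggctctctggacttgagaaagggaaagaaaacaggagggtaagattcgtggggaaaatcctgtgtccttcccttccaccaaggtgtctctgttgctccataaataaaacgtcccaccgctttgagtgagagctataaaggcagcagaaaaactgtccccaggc
Car14: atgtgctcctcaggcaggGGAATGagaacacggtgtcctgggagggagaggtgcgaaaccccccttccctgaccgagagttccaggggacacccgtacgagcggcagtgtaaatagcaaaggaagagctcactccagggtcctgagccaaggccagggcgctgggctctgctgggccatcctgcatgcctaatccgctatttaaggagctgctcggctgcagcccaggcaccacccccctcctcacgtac

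The motif CATTCC, the core of the TEAD site, was searched on both strands in windows from 250 bases before to 50 bases after each start site. It was in 4817 of 32851 windows (14.7%). RefSeq windows were at hand for 9 of the 10 members (not for *Car2*), 11 windows in all, and 1 of them held the motif, that of *Car14*, at position -232 from the start site. No match was found in the window of *Slc26a4*, which says only that these letters are not in it.

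In the control retinas, the levels of the 10 genes spanned from *Car2* to *Car4*. *Car2*, the main cytosolic carbonic anhydrase, was highest with a mean of 838 TPM (rank 107 of all tested genes), followed by *Car14*, a membrane-bound enzyme, with 154 TPM. *Slc4a3* had 49.5 TPM, *Slc4a7* 35.6 TPM, *Slc4a5* 29.6 TPM and *Slc4a2* 14.6 TPM. *Slc26a4* came seventh with 8.42 TPM (rank 10500), ahead of *Car12* with 4.46 TPM, *Slc4a4* with 4.11 TPM and *Car4* with 1.64 TPM. The control retinas of neighbours in this order overlapped between *Slc4a7* and *Slc4a5* and between *Car12* and *Slc4a4*, and at no other step.

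*Slc26a4* was the 1 member that met every criterion for a call, against 0.796% of all tested genes (132 of 16575, of which 35 were higher and 97 lower in *Yap* cKO retinas). A call required an adjusted p (edgeR's quasi-likelihood test, Benjamini-Hochberg) of at most 0.05, a minimal fold change of 1.5 and at least 5 TPM on average in 1 group. By the adjusted p alone, 2 of the 10 members passed (*Slc26a4*, lower, and *Slc4a4*, higher) against 1.49% of all tested genes. *Slc4a4* passed by little. It passed too by DESeq2, by edgeR's likelihood ratio test and with no filter on low counts. It did not pass without YR612, YR615, YR711 or YR713, or with library sizes alone, median-ratio size factors or sex as a covariate. Nor did it pass with the correction for gene length, with which *Slc4a5*, lower, passed instead. Control and *Yap* cKO retinas did not overlap in TPM for 6 of the 10 members, against 24.3% of all tested genes. Of these 6 genes, *Slc4a3*, *Slc4a4*, *Slc4a7* and *Car2* were higher and *Slc26a4* and *Slc4a5* lower in *Yap* cKO retinas. The median log2 fold change of the 10 genes was -0.06, and that of all tested genes 0.00. These counts come from the comparison that chose the genes, so nothing is read from them.

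**Figure D1:**
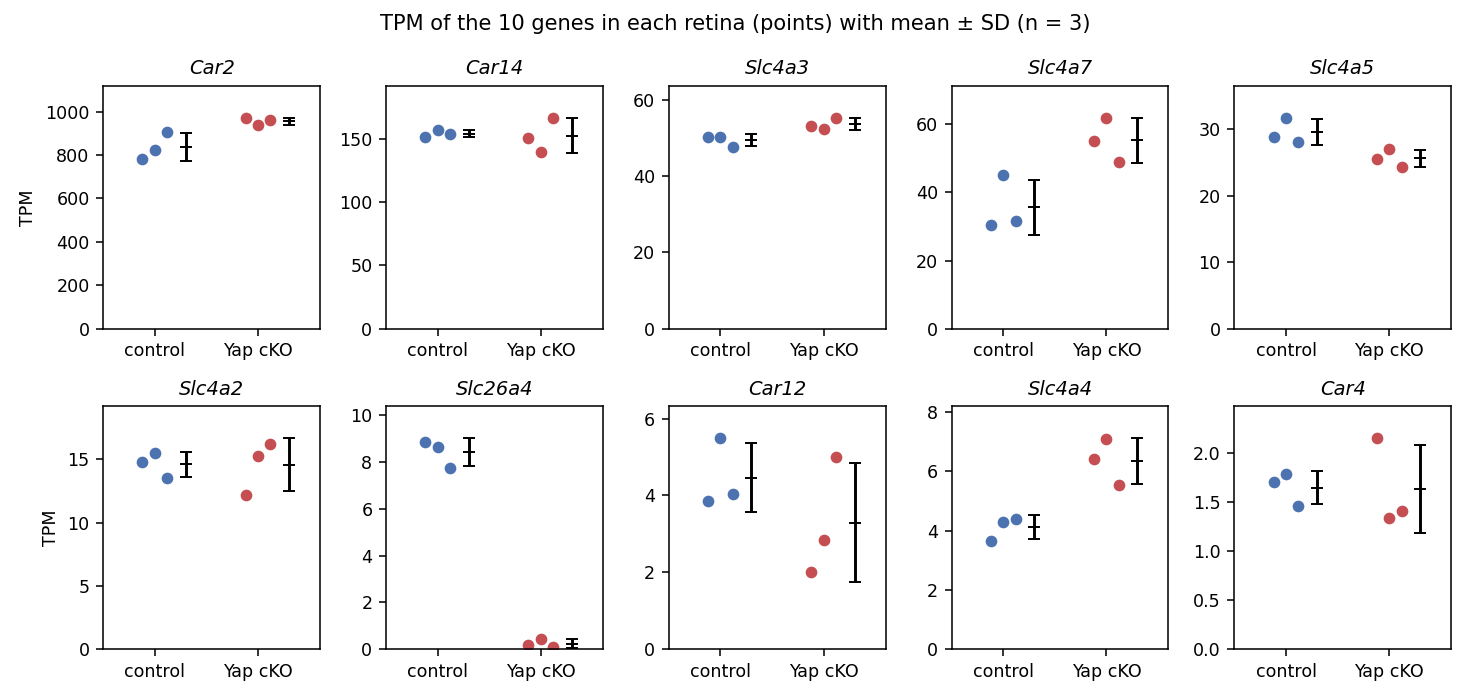
TPM of the 10 genes in the 3 control (blue) and 3 *Yap* cKO (red) retinas, 1 panel per gene in the order of the control level, with each retina as a point and the mean ± SD (n = 3) in black beside it; each vertical axis starts at 0 and has its own scale. *Slc26a4* is near 0 in all *Yap* cKO retinas, *Slc4a4* and *Slc4a7* lie above the control retinas, and the groups overlap for *Slc4a2*, *Car4*, *Car12* and *Car14*.

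*Slc26a4* (ENSMUSG00000020651) lies on the minus strand of chromosome 12 of GRCm38, from 31519827 to 31559969, and has 3109 exonic bases. It was at 8.87 TPM in control YR612, 8.64 TPM in YR613 and 7.74 TPM in YR615, and at 0.201, 0.444 and 0.0941 TPM in the mutant YR711, YR713 and YR714. Every *Yap* cKO retina was far below all control retinas, with YR713 the highest of them. The means were 8.42 ± 0.596 TPM (SD, n = 3) and 0.246 ± 0.179 TPM (SD, n = 3), so that 2.93% of the control level was left. The log2 fold change was -5.03 ± 0.30 (SE), a level 32.8-fold lower, and was the second lowest among all tested genes. It lay between -5.84 (without YR713) and -4.69 when single retinas were left out, and between -5.07 and -4.97 with the other tests, scalings, filter and covariate tried.

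The residual level of *Slc26a4* rested on few fragments. There were 182, 184 and 185 fragments in the control retinas and 4, 12 and 2 in YR711, YR713 and YR714. As a share of the control mean, the *Yap* cKO retinas had 2.39%, 5.27% and 1.12%. Exact Poisson 95% intervals, which cover counting error only, were 0.0549 to 0.516 TPM in YR711, 0.229 to 0.775 TPM in YR713 and 0.0114 to 0.340 TPM in YR714. These intervals overlap each other, and a difference among the *Yap* cKO retinas was not tested. All 3 lie below the lowest bound among the control retinas, 6.67 TPM.

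The 6 nearest tested genes on chromosome 12 did not share the difference of *Slc26a4*. They are *Cbll1*, *Dld* and *Lamb1* at lower and *Bcap29*, *Dus4l* and *Cog5* at higher coordinates, between 20211 and 190183 bases away. Their log2 fold changes ranged from -0.21 in *Bcap29* to 0.29 in *Cog5*, and none was called (adjusted p from 0.125 to 0.908 by edgeR's quasi-likelihood test, Benjamini-Hochberg). At an unadjusted p under 0.05 were *Lamb1*, lower, and *Cog5*, higher, and when single retinas were left out the 6 log2 fold changes stayed between -0.31 and 0.37.

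The genes whose pattern over the 6 retinas was most like that of *Slc26a4* were taken by the root mean square difference of log2 CPM, each gene centred on its mean. They were *Npvf* (0.28), *Ltbp2* (0.36), *Fmod* (0.48), *Best2* (0.52), *Optc* (0.64), *Fbln1* (0.76), *Cldn2* (0.84) and *Gpx3* (0.95), where the median over 16574 genes was 2.47. *Npvf* encodes neuropeptide precursors. *Ltbp2*, *Fmod*, *Optc* and *Fbln1* encode proteins of the extracellular matrix, *Cldn2* a tight junction protein, *Gpx3* a secreted glutathione peroxidase and *Best2* a bestrophin channel. All 8 were lower in *Yap* cKO retinas without overlap, as their likeness to *Slc26a4* requires, and 7 of them met every criterion. *Npvf*, with 54, 58 and 46 fragments in the control retinas and 0, 2 and 0 in the *Yap* cKO retinas, was at least 18.1-fold lower, counting at least 3 fragments in each *Yap* cKO library. The log2 fold changes of the others ran from -4.29 in *Best2* to -3.15 in *Fbln1*. When the group means were also removed, 3 of the 8 genes stayed among the 100 genes most alike to *Slc26a4*. The others then ranked 112 (*Ltbp2*), 258 (*Best2*), 3616 (*Fbln1*), 10316 (*Cldn2*) and 12589 (*Gpx3*) of 16574. The choice over the 6 retinas already used these differences within groups. In *Yap* cKO retinas those of *Slc26a4* rest on few fragments, so nothing is read from these ranks. RefSeq windows were at hand for 7 of the 8 genes, and the motif CATTCC was in those of *Npvf* and *Cldn2*.

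In each of these 8 genes, as in *Slc26a4*, YR713 was the highest of the *Yap* cKO retinas, which the choice by likeness over the 6 retinas in part builds in. *Ltbp2* kept 3.62%, 11.8% and 1.82% of its control mean in YR711, YR713 and YR714, and *Optc* kept 5.95%, 17.5% and 5.09%. For *Optc*, which has more fragments than *Slc26a4*, the Poisson interval of YR713 (7.23 to 9.68 TPM) lay above those of YR711 (2.10 to 3.80 TPM) and YR714 (1.77 to 3.29 TPM). Without YR713 the log2 fold change of *Ltbp2* was -5.25 and that of *Optc* -4.23, against -4.08 and -3.41 with all retinas.

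**Figure D2:**
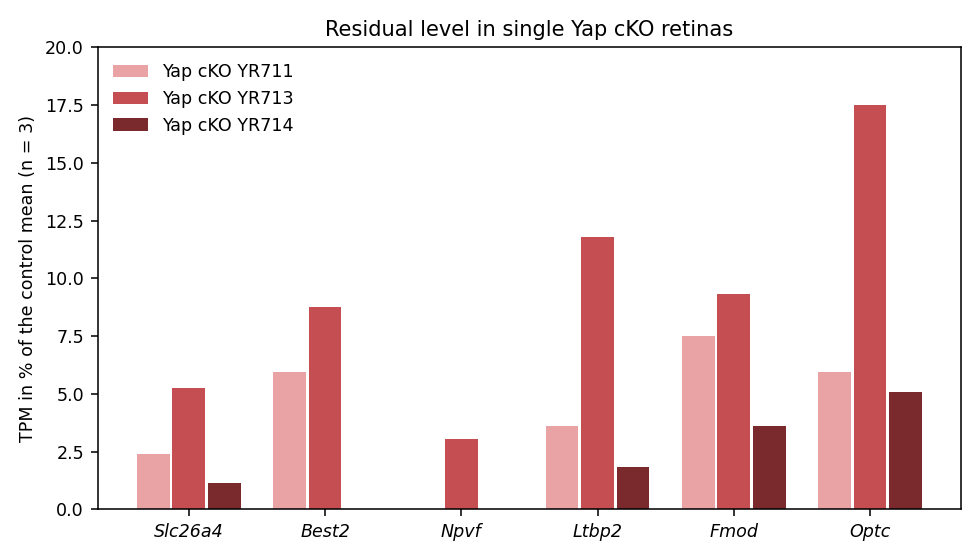
Level left in each *Yap* cKO retina, in % of the mean TPM of the 3 control retinas, for *Slc26a4* and 5 of the genes most like it; bars are single retinas (light to dark: YR711, YR713, YR714) and the axis starts at 0. YR713 has the tallest bar for each gene, which the choice of these genes in part builds in, 5.27% for *Slc26a4* and 17.5% for *Optc*, and *Npvf* has a bar in YR713 alone.

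Some markers of ciliary epithelium and pigment cells were lower in *Yap* cKO retinas too. Of the NPE list, 5 markers were tested and 2 were called, both lower (0.796% of all tested genes were called). These are *Optc* and *Ltbp2*, which were already named for their likeness to *Slc26a4*. The 6 NPE markers measured had a summed level of 87.2 to 93.9 TPM in the control retinas and 28.7 to 39.7 TPM in the *Yap* cKO retinas. Without *Optc* and *Ltbp2*, the 4 others summed to 30.5 to 38.6 TPM in control and 26.1 to 30.5 TPM in *Yap* cKO retinas. None of the 3 of them that were tested was called, and their median log2 fold change was -0.46. All 3 were lower at an unadjusted p under 0.05 (edgeR's quasi-likelihood test). Most of the sum came from *Col9a1*, with a control mean of 27.1 TPM and 88.0% of it left. *Zic1* was at 75.6% of its control mean. *Otx1* and the untested *Msx1*, both under 1 TPM on average in controls, were at 28.1% and 24.9%. *Zic1*, *Otx1* and *Msx1* were lower without overlap. Of 6 melanin pigment cell markers, 1 was called (*Pmel*, lower), and all 6 were lower without overlap (24.3% of all tested genes did not overlap). Their summed level in YR711, YR713 and YR714 was 22.6%, 64.8% and 36.9% of the control mean, with YR713 the highest. The order of YR711, YR713 and YR714 cannot be compared with that of *Slc26a4*, which had few fragments and overlapping Poisson intervals in these retinas. Of 4 tested fibroblast markers none was called. *Col1a1*, *Col3a1* and *Pdgfra* overlapped between the groups, with log2 fold changes from -0.05 (*Pdgfra*) to 0.08 (*Col1a1*). *Col1a2*, named after its values were seen, was at 3.52 ± 0.732 TPM in controls and 0.811 ± 0.244 TPM in *Yap* cKO (SD, n = 3). Its log2 fold change was -2.16 ± 0.22 (SE; adjusted p = 0.00236 by edgeR's quasi-likelihood test, Benjamini-Hochberg), and its mean is under the minimum of 5 TPM. The fibroblast markers *Dcn* and *Lum* had too few fragments to be tested. *Dcn* was at 1.48, 0.175 and 0.156 TPM in the control retinas and at 0.134, 0.295 and 0.125 TPM in the *Yap* cKO retinas. *Lum* was at 0.248, 0 and 0.0532 TPM in the control retinas and at 0 TPM in the *Yap* cKO retinas. Of 6 Müller glia markers none was called, and 4 were at an unadjusted p under 0.05 (edgeR's quasi-likelihood test). Of these, 3 were lower (*Rlbp1*, *Glul* and *Aqp4*) and 1 was higher (*Kcnj10*). The share of all tested genes at an unadjusted p under 0.05 was not counted. Nothing is therefore read from these numbers, nor from that of the 3 NPE markers. The summed level of the 6 was 5300 to 5716 TPM in control and 4900 to 5544 TPM in *Yap* cKO retinas. The part of ciliary epithelium, pigment cells and fibroblasts in the *Slc26a4* difference was not tested.

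The other tested SLC26 exchangers showed no difference of this size. Of the 10 other genes of the family, 7 passed the filter, and their log2 fold changes ranged from -0.46 to 0.24 with a median of -0.14. None was called, and none was at an unadjusted p under 0.05 (edgeR's quasi-likelihood test). The 3 with the highest control levels were *Slc26a2*, a sulfate transporter, *Slc26a6*, an exchanger of chloride, oxalate and bicarbonate, and *Slc26a11*. *Slc26a2* had 20.6 ± 3.42 TPM in controls and 22.6 ± 2.96 TPM in *Yap* cKO (SD, n = 3), and *Slc26a6* had 9.18 ± 0.829 and 9.86 ± 0.952 TPM. *Slc26a11* had 7.13 ± 0.0651 and 6.72 ± 0.0956 TPM, with *Yap* cKO retinas below control retinas and a log2 fold change of -0.14 ± 0.11 (SE).

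Among partners of pendrin-type epithelia, *Best2* stood out. Of 11 genes in this list, 7 were tested and 0 were called (0.796% of all tested genes were). By the adjusted p alone 1 passed, *Best2* (1.49% of all tested genes did). *Best2* encodes bestrophin 2, a chloride and bicarbonate channel known from the NPE. It was at 5.95, 4.28 and 3.99 TPM in the control retinas and at 0.282, 0.415 and 0 TPM in YR711, YR713 and YR714, where 3 fragments in YR714, the limit set for a count of 0, would be 0.198 TPM and the exact Poisson 95% interval reaches 0.243 TPM. The means were 4.74 ± 1.06 and 0.232 ± 0.212 TPM (SD, n = 3), and the log2 fold change was -4.29 ± 0.47 (SE; adjusted p = 0.00326 by edgeR's quasi-likelihood test, Benjamini-Hochberg). It missed a call by its control mean, which is under 5 TPM. *Slc12a2*, the sodium, potassium and chloride cotransporter, had 15.9 ± 2.71 TPM in controls and 19.0 ± 3.02 TPM in *Yap* cKO. *Bsnd*, a chloride channel subunit, had a control mean of 9.31 TPM and a log2 fold change of 0.00 ± 0.14 (SE).

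Of the SLC4 members, *Slc4a4* and *Slc4a7* were at 154% and 155% of the control level and the other 3 were near it. Over all tested genes, the log2 fold change was higher in longer genes. The median log2 fold change was 0.21 in the decile of the longest genes (9602 to 123179 bases) and -0.09 in the third decile. Beside each value, the log2 fold change after removal of this trend from each retina is given as the length-corrected value.

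*Slc4a7* (chromosome 14, 14702279 to 14799940), an electroneutral cotransporter of sodium and bicarbonate, has 15201 exonic bases. It was at 30.3, 45.0 and 31.6 TPM in the control retinas and at 55.0, 62.0 and 48.9 TPM in YR711, YR713 and YR714. Every *Yap* cKO retina was above all control retinas, but control YR613 came near to YR714. The means were 35.6 ± 8.16 and 55.3 ± 6.55 TPM (SD, n = 3), 155% of the control level. This gave a log2 fold change of 0.58 ± 0.14 (SE), and the length-corrected value was 0.34 ± 0.08 (SE). The gene met every criterion only without YR613 or without YR714, with log2 fold changes of 0.50 to 0.76 over the retinas left out. By the adjusted p alone it passed too by DESeq2, by edgeR's likelihood ratio test and with no filter on low counts.

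*Slc4a4* (chromosome 5, 88886818 to 89239653) encodes the electrogenic sodium bicarbonate cotransporter known from Müller glia and has 10905 exonic bases. It was at 3.66, 4.28 and 4.40 TPM in the control retinas and at 6.40, 7.08 and 5.53 TPM in YR711, YR713 and YR714. The groups did not overlap, and the means were 4.11 ± 0.401 and 6.34 ± 0.778 TPM (SD, n = 3), 154% of the control level. In the fit, its log2 fold change was 0.57 ± 0.12 (SE), 1.48-fold, and the length-corrected value was 0.41 ± 0.11 (SE). It fell just short of the fold change minimum of 1.5 with all retinas and met every criterion only without YR714.

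*Slc4a5* (chromosome 6, 83219828 to 83304945; 5804 exonic bases), another electrogenic sodium bicarbonate cotransporter, was on the other side. It was at 28.9, 31.8 and 28.1 TPM in the control retinas and at 25.6, 27.0 and 24.3 TPM in the *Yap* cKO retinas, with no overlap. The means were 29.6 ± 1.96 and 25.6 ± 1.39 TPM (SD, n = 3), 86.5% of the control level. Its fitted log2 fold change was -0.27 ± 0.08 (SE) and the length-corrected value -0.31 ± 0.07 (SE), so the correction moved *Slc4a5* away from 0 where it moved *Slc4a4* and *Slc4a7* towards it. It stayed below 0 in 13 of 13 alternatives (a lower TPM minimum, the other one tried, does not change a fold change).

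The chloride bicarbonate exchangers *Slc4a2* and *Slc4a3* had small differences whose sign changed in 1 of 13 alternatives each. *Slc4a3* (chromosome 1, 75546266 to 75562172; 8599 exonic bases), known from retinal neurons and glia, was at 50.3, 50.4 and 47.7 TPM in controls and 53.3, 52.3 and 55.4 TPM in *Yap* cKO. The groups did not overlap in TPM, yet the log2 fold change was 0.06 ± 0.08 (SE) and the length-corrected value was -0.05. *Slc4a2* (chromosome 5, 24423837 to 24440950; 8322 exonic bases), expressed in many tissues, was at 14.8, 15.5 and 13.5 TPM in controls and 12.2, 15.3 and 16.2 TPM in *Yap* cKO. Its groups overlapped, with *Yap* cKO YR711 the lowest and YR714 the highest of the 6, and the log2 fold change was -0.06 ± 0.12 (SE). *Slc4a2* overlaps 2 genes on the opposite strand, and the counting was set to use strand.

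Other SLC4 genes of the retina had log2 fold changes above 0, like *Slc4a4* and *Slc4a7*. With all retinas and the filter on low counts they did not pass edgeR's quasi-likelihood test. Of 5 other SLC4 genes, 2 passed the filter, *Slc4a8* and *Slc4a10*, both sodium-dependent bicarbonate transporters of neurons, and neither was called. *Slc4a10* was at 60.1, 91.3 and 78.1 TPM in controls and 135, 118 and 89.0 TPM in *Yap* cKO, and *Slc4a8* at 23.9, 36.6 and 25.2 and at 50.9, 42.3 and 33.2 TPM. In both, control YR613 was above *Yap* cKO YR714. *Slc4a10* had a log2 fold change of 0.52 ± 0.16 (SE; adjusted p = 0.124 by edgeR's quasi-likelihood test, Benjamini-Hochberg) with a length-corrected value of 0.46. For *Slc4a8* it was 0.51 ± 0.17 (SE; adjusted p = 0.147, same test) with a length-corrected value of 0.30. Both genes were called without YR613 (*Slc4a8* 0.70, *Slc4a10* 0.65) and without YR714 (0.63 and 0.66). By the adjusted p alone, *Slc4a10* passed by DESeq2's Wald test (adjusted p = 0.0274) and by edgeR's likelihood ratio test (adjusted p = 0.0391). *Slc4a8* did not pass by these tests, and both genes passed with no filter on low counts.

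**Figure D3:**
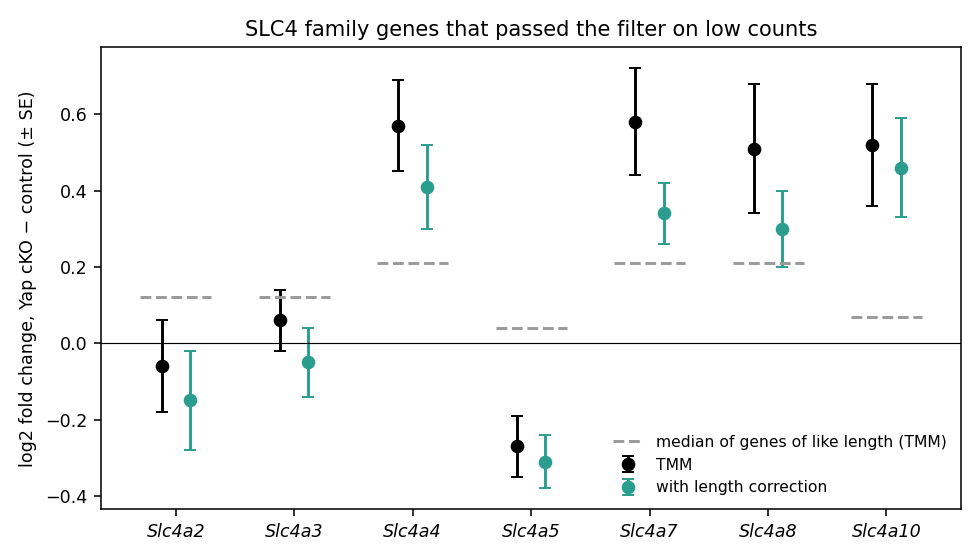
Log2 fold change (*Yap* cKO minus control, ± standard error) of the 7 tested SLC4 genes with TMM scaling (black) and with the length correction (green); dashed lines give the median log2 fold change of all tested genes in the same decile of exonic length. The correction lowers *Slc4a7* from 0.58 to 0.34 and *Slc4a8* from 0.51 to 0.30, and *Slc4a5* is below 0 in both.

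Of the carbonic anhydrases among the members, *Car2* was above the control level, *Car14* and *Car4* overlapped it, and *Car12* differed between single retinas. *Car2* (chromosome 3, 14886273 to 14900770; 2422 exonic bases) was at 781, 824 and 908 TPM in the control retinas and at 970, 939 and 962 TPM in the *Yap* cKO retinas. The groups did not overlap, and the means were 838 ± 64.5 and 957 ± 16.1 TPM (SD, n = 3), 114% of the control level. Its log2 fold change was 0.14 ± 0.08 (SE), and the length-corrected value was 0.23 ± 0.07 (SE), where genes of like length had a median of -0.09.

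*Car14* (chromosome 3, 95897768 to 95904691; 2543 exonic bases), a transmembrane enzyme with an extracellular catalytic domain that is known from Müller glia and the pigment epithelium, was at 152, 157 and 154 TPM in control retinas. In the *Yap* cKO retinas it was at 151, 140 and 167 TPM, which spans the control values. With a log2 fold change of -0.07 ± 0.09 (SE), its sign was the same in 11 of 13 alternatives. *Car14* overlaps 1 gene on the opposite strand. *Car4* (chromosome 11, 84957786 to 84966044), a membrane-anchored enzyme of capillary endothelium, was at 1.70, 1.78 and 1.46 TPM in controls and 2.15, 1.34 and 1.41 TPM in *Yap* cKO, on 19 to 27 fragments per retina. Its log2 fold change was -0.08 with a standard error of 0.26, and the sign held in 10 of 13 alternatives, so no direction could be read at this depth.

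*Car12* (chromosome 9, 66713686 to 66766845; 7597 exonic bases), a transmembrane enzyme of epithelia known from the NPE, differed between single *Yap* cKO retinas. It was at 3.85, 5.49 and 4.04 TPM in the control retinas and at 2.02, 2.83 and 5.01 TPM in YR711, YR713 and YR714. YR711 and YR713 were below all control retinas and YR714 was within their range. The means were 4.46 ± 0.898 and 3.29 ± 1.55 TPM (SD, n = 3), and the log2 fold change was -0.49 ± 0.29 (SE), from -0.94 without YR714 to -0.24 without YR711. *Slc26a4* was highest in YR713 and lowest in YR714, but on few fragments with overlapping Poisson intervals, so the 2 orders cannot be compared.

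The summed level of 5 retinal pigment epithelium markers had the same order over the retinas as *Car12*. The 5 markers, none of which was called, had summed levels of 653 TPM in control YR612, 720 TPM in YR613 and 683 TPM in YR615, and of 200, 369 and 705 TPM in YR711, YR713 and YR714. As a share of their control mean, the *Yap* cKO retinas had 29.3%, 53.9% and 103%, where *Car12* had 45.3%, 63.4% and 112%. Most of the sum was *Ttr*, with 148, 271 and 469 TPM in these retinas. Each of the 5 markers was lowest in YR711 and highest in YR714. In YR714, however, *Rpe65* (68.6 TPM) was below and *Lrat* (19.1 TPM) above all control retinas. The summed NPE markers had another order, with 37.4%, 44.2% and 31.9%. The epithelial exchanger *Slc26a7*, chosen after its values were seen, had 34.8%, 94.3% and 109%. *Slc26a7* was at 2.46, 3.81 and 2.68 TPM in controls and 1.04, 2.81 and 3.26 TPM in *Yap* cKO. The part of pigment epithelium in these values was not tested.

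**Figure D4:**
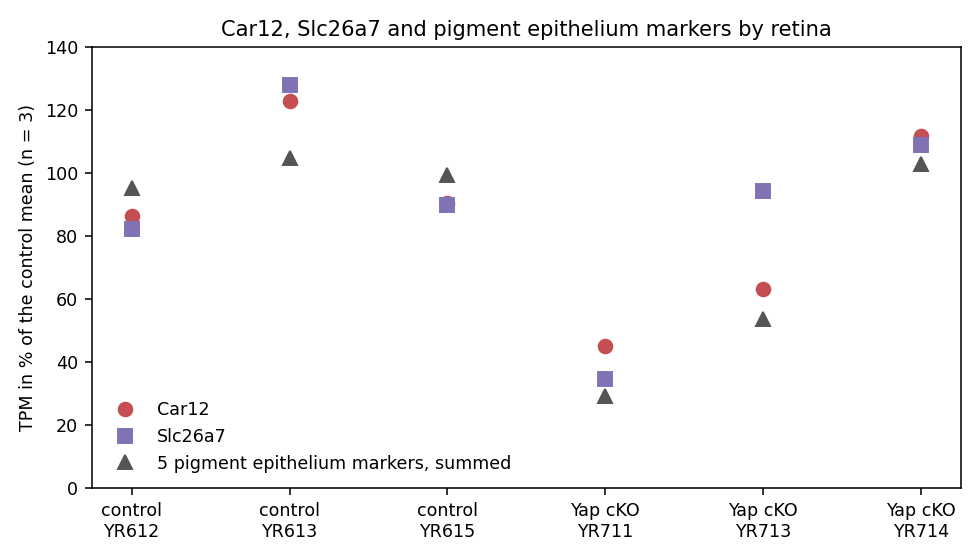
TPM of *Car12* (circles), of *Slc26a7* (squares) and summed over 5 pigment epithelium markers (triangles) in each retina, in % of the mean of the 3 control retinas. All 3 are lowest in YR711 (45.3%, 34.8% and 29.3%) and within or near the range of the control retinas in YR714.

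Among the other carbonic anhydrases, *Car5b* met every criterion. Of 12 genes, 7 were tested and 1 was called (lower), against 0.796% of all tested genes. The median log2 fold change was 0.12. *Car5b*, a mitochondrial enzyme, was at 6.23, 8.04 and 6.59 TPM in the control retinas and at 4.43, 5.01 and 4.72 TPM in the *Yap* cKO retinas, with no overlap. *Car5b* had a log2 fold change of -0.61 ± 0.12 (SE; adjusted p = 0.0452 by edgeR's quasi-likelihood test, Benjamini-Hochberg), and the length-corrected value was -0.67 (adjusted p = 0.0151, same test). *Car5b* is on the X chromosome, and with sex as a covariate it was no longer called (log2 fold change -0.62, adjusted p = 0.0683, same test). It was called in 7 of 13 refits and with a TPM minimum of 1, and when single retinas were left out it was called only without YR714.

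The 3 other carbonic anhydrases with the highest control levels belong to the catalytically inactive branch of the family. *Car8* had 95.4 ± 13.3 TPM in controls and 119 ± 22.3 TPM in *Yap* cKO, *Car10* 52.4 ± 6.77 and 69.1 ± 4.51 TPM, and *Car11* 43.4 ± 3.69 and 39.6 ± 9.46 TPM (SD, n = 3). *Car10*, with no overlap between the groups, had a log2 fold change of 0.34 ± 0.09 (SE) and did not pass (adjusted p = 0.0917 by edgeR's quasi-likelihood test, Benjamini-Hochberg). It passed the adjusted p by DESeq2's Wald test (adjusted p = 0.0261) and by edgeR's likelihood ratio test (adjusted p = 0.0329). It passed too with no filter on low counts, and it was called in 0 of 13 alternatives.

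Sodium-proton exchangers, which set cell pH together with the bicarbonate transporters, had log2 fold changes above 0 in 7 of 7 tested genes (of 9), with a median of 0.18, and none was called. The median of all tested genes was 0.00. The sign did not hold throughout, as *Slc9a8* moved from 0.04 to -0.08 with the length correction and *Slc9a9* from 0.13 to -0.04 without YR711. *Slc9a7*, of the trans-Golgi network and on the X chromosome, had 23.1 ± 8.32 TPM in controls and 41.7 ± 8.54 TPM in *Yap* cKO (SD, n = 3), with a log2 fold change of 0.80 ± 0.22 (SE; adjusted p = 0.100 by edgeR's quasi-likelihood test, Benjamini-Hochberg). Control YR613 was above *Yap* cKO YR714 here too.

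Over all 5 lists of related genes, 30 of 47 were tested. Of these, 1 was called (0.796% of all tested genes were) and 2 passed the adjusted p alone (1.49% of all tested genes did), all lower in *Yap* cKO retinas. At an unadjusted p under 0.05 (edgeR's quasi-likelihood test) there were 6 higher and 3 lower genes. The share of all tested genes at that p was not counted, so nothing is read from these 2 numbers. The median log2 fold change of the 30 genes was 0.10.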

How the data were processed

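Stranded paired-end reads of polyadenylated RNA were aligned by the authors to GRCm38 with STAR 2.7.3a, per the labels, and the deposited values are counts of fragments per gene from featureCounts 1.6.2 (strand setting 2), without normalization. The file's header names annotation release 98. TPM was computed from counts and exonic length. Genes were filtered with filterByExpr, scaled by TMM and compared by edgeR's quasi-likelihood test (edgeR 4.0.16, R 4.3.3), 3 *Yap* cKO against 3 control retinas, with Benjamini-Hochberg adjustment over 16575 genes. Standard errors were derived from the F statistic. The length correction fitted a loess curve (span 0.3) of relative expression against length in each retina. Likeness used log2 CPM with a prior count of 2.

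Depth was 24261799 to 35067068 fragments per retina (common dispersion 0.0126). Low counts limit *Slc26a4* in *Yap* cKO retinas and *Car4*. The labels name animals, taken as replicates, but no litter or batch.

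The members and lists were chosen with earlier results of these data known. Named were all members, called genes and the 3 highest control levels of each list (2 of these genes are not reported here), the 8 genes most like *Slc26a4* and 6 neighbours. Of 10 lists of cell markers, those not named in the text had 0 genes called (inner retinal neurons, of which *Grm6*, higher, passed the adjusted p alone, endothelial cells, oligodendrocytes and red blood cells). Of 14 alternatives, 13 were planned, among them DESeq2 1.42.0, and 1, sex as a covariate, was chosen after seeing the data. The steps were tested on simulated data.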

Additional observations from a re-analysis of the deposited data

How the results depend on the processing

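*Slc26a4* met every criterion in all alternatives run. All of these alternatives use the comparison that chose the gene, so nothing more is read from this. The count of members called was 1 in each of them except with retinas left out in turn (1 to 3). It was 3 without *Yap* cKO YR714 (with *Slc4a4* and *Slc4a7*) and 2 without control YR613 (with *Slc4a7*). Of the related genes, 1 was called (*Car5b*). There were 2 by edgeR's likelihood ratio test, by DESeq2 and with no filter on low counts (*Car5b* and *Slc9a7*), and 2 with a TPM minimum of 1 (*Best2* and *Car5b*). There were 0 with sex as a covariate, and 0 to 4 with retinas left out in turn. It was 0 without YR612, YR711 or YR713, 4 without YR714, 3 without YR613, and *Best2* alone without YR615.

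Over all genes, 132 were called, against 263 by DESeq2 (Wald), 291 by edgeR's likelihood ratio test, 369 without the filter, and 38 (without YR615) to 516 (without YR613) with retinas left out. It was 40 without YR612, 68 without YR713 and 448 without YR714. The causes were not tested.

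Without YR713, *Slc26a4* moved to -5.84 (log2 fold change). The length correction moved *Slc4a3* from 0.06 to -0.05 and *Car2* from 0.14 to 0.23. No paired analysis was possible because the labels give animal codes and no replicate numbers shared between the groups.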
